A study of Homo sapiens with 6 samples.

Results

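The mitochondrial ribosomal protein genes are the nuclear genes whose symbol in the platform's annotation is MRPL or MRPS followed by digits, and 51 of the 11963 genes measured on the array met this rule. They were read by 64 probe sets, and each gene is given here by its brightest one. The rule used no measured value. Transcripts were measured in 6 samples of MDA-MB-231, a mesenchymal, triple-negative human breast cancer cell line grown in RPMI medium with serum. The group called dinaciclib held 3 samples, named F, 4 and 5, taken 12 h after dinaciclib, an inhibitor of several cyclin-dependent kinases, had been put into the medium in DMSO. The group called baseline held 3 samples, named E, 4 and 5, taken at 0 h. The labels give neither the dose nor whether baseline cells received DMSO, and no sample was kept 12 h without the drug, so drug, solvent and time in culture cannot be told apart. Separate cultures are not mentioned in the labels, so the spread between samples, on which every p-value rests, may be technical.

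Mitochondria carry their own ribosome, which translates the few messenger RNAs of the mitochondrial genome, all of them for subunits of the respiratory chain and ATP synthase. Its ribosomal RNAs come from mitochondrial DNA, but every one of its proteins is encoded in the nucleus, made in the cytosol and imported, so the mitochondrial ribosomal protein genes are transcribed by RNA polymerase II like other messenger RNA genes. The proteins form a small subunit, which decodes the message, and a large subunit, which joins the amino acids. Some descend from bacterial ribosomal proteins and others were added in the mitochondrial lineage. The symbols MRPS18A and MRPS30 come from early small-subunit assignments, but both proteins sit in the large subunit and were counted there.

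The arrays differed as a whole. Median intensities over all probe sets were 40.6 to 46.8 with dinaciclib and 53.3 to 66.2 at baseline, and the samples named with a letter stood apart, with an 18S ribosomal RNA control (5-prime probe set) of 1155 in dinaciclib F and 736 in baseline E against 8273 to 9061 in the other 4. The 3-prime over 5-prime ratio of the actin control was also lowest in these samples, at 3.64 in dinaciclib F and 4.27 in baseline E. It was 5.87 and 6.23 in dinaciclib 4 and 5, and 6.61 and 6.67 in baseline 4 and 5. The intensities of VIM, CD44, MSN, CAV1, AXL and LGALS1, mesenchymal genes of this line, were 3411 to 9649 over the 6 samples, EGFR read 152 to 223 with dinaciclib and 554 to 1273 at baseline, and the luminal genes ESR1, PGR, CDH1, FOXA1 and TFF1 were at 0.434 to 59.8. GATA3, another luminal gene, was at 263 to 401. The blood and endothelial genes PTPRC, CD3E and PECAM1 were at 6.34 to 46.0.

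The mitochondrial ribosomal protein transcripts did not move as a block. After 12 h of dinaciclib 8 of the 51 genes fell and 1 rose, and the remaining 42 missed the threshold, an adjusted p under 0.05 in limma with Benjamini-Hochberg (BH) adjustment over 15114 rows. Standard errors (SE) below come from that fit. The falls were 15.7% of the 51 and the rise 1.96%, where over all 11963 genes 16.4% fell and 3.54% rose. The share of falls was close to the background in the values as deposited, but above it under several other settings and below it under others. The log2 changes, on the scale of log2(intensity + 1), ran from -1.72 for MRPL17 to 1.13 for MRPS30, and 27 of the 51 lay within 0.5 of zero. The middle of the 51 was -0.22, with quartiles of -0.76 and -0.01, beside -0.26 with quartiles of -0.80 and 0.16 for all genes. A total of 38 genes had a change below 0 and 13 one above 0, where 34.9% of all genes lay above 0. In 17 genes every dinaciclib sample lay below every baseline sample and in 4 every one lay above, against 30.7% and 9.36% of all genes. An unadjusted p under 0.05 was reached by 20 of the 51, beside 34.0% of all genes. Each value is relative to the RNA put on the array, so less of 1 transcript and a change of total RNA per cell cannot be told apart.

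**Figure D1:**
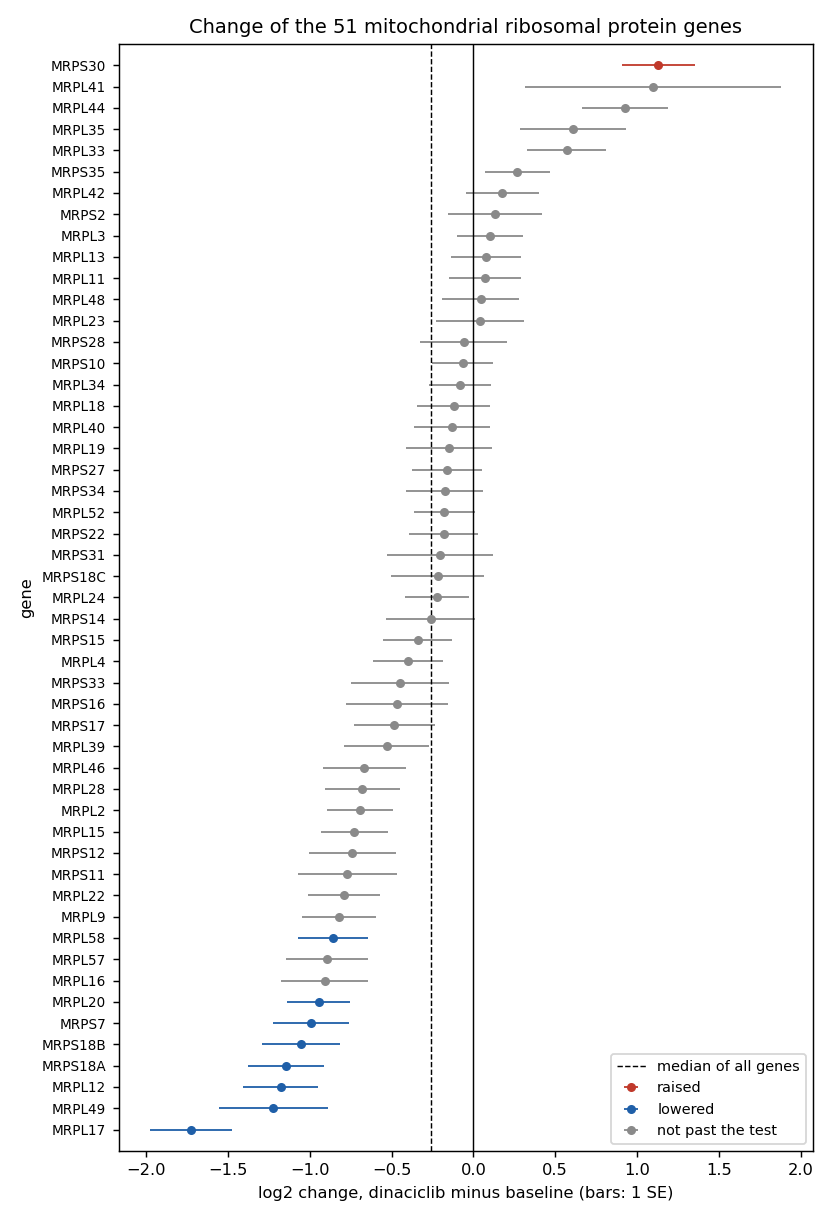
Log2 change (dinaciclib minus baseline, log2(intensity + 1) scale) of each of the 51 genes, ordered by size, with 1 standard error from the fit over all genes; blue genes fell, the red gene rose and grey genes did not pass. The points form a continuous range from -1.72 to 1.13, and the dashed line is the median of all genes at -0.26.

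How many passed depended on the arrays' scaling and on single samples. As deposited, 1 of the 9 called genes rose. Quantile normalization, which brought the median of all genes to -0.02, called 3 as raised (5.88%, beside 8.89% of all genes) and 13 as lowered (25.5%, beside 13.4%). Centring on the array median, which brought it to 0.19, called 8 as raised (15.7%, beside 16.3%) and 4 as lowered (7.84%, beside 10.9%). With a covariate for letter or number 16 fell (31.4%, beside 19.1%), and with a variance trend and robust estimation 18 fell (35.3%, beside 22.4%). The median of the 51 relative to that of all genes was 0.04 as deposited and -0.12 after quantile normalization. Centring shifts all genes of an array alike, so it cannot move this difference. Without baseline E 16 genes fell (31.4%, beside 15.4% of all genes), among them all 8 named below. Without baseline 4, without baseline 5 or without dinaciclib F MRPL17 alone of the 51 was called as lowered (1.96%), beside 7.51%, 7.73% and 12.6% of all genes. Without dinaciclib 4 MRPL12 and MRPL17 were called (3.92%, beside 10.6%), and without dinaciclib 5 MRPL17 and MRPS18A (3.92%, beside 9.76%). Whether the 51 differ from other genes was not tested under any setting.

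**Figure D2:**
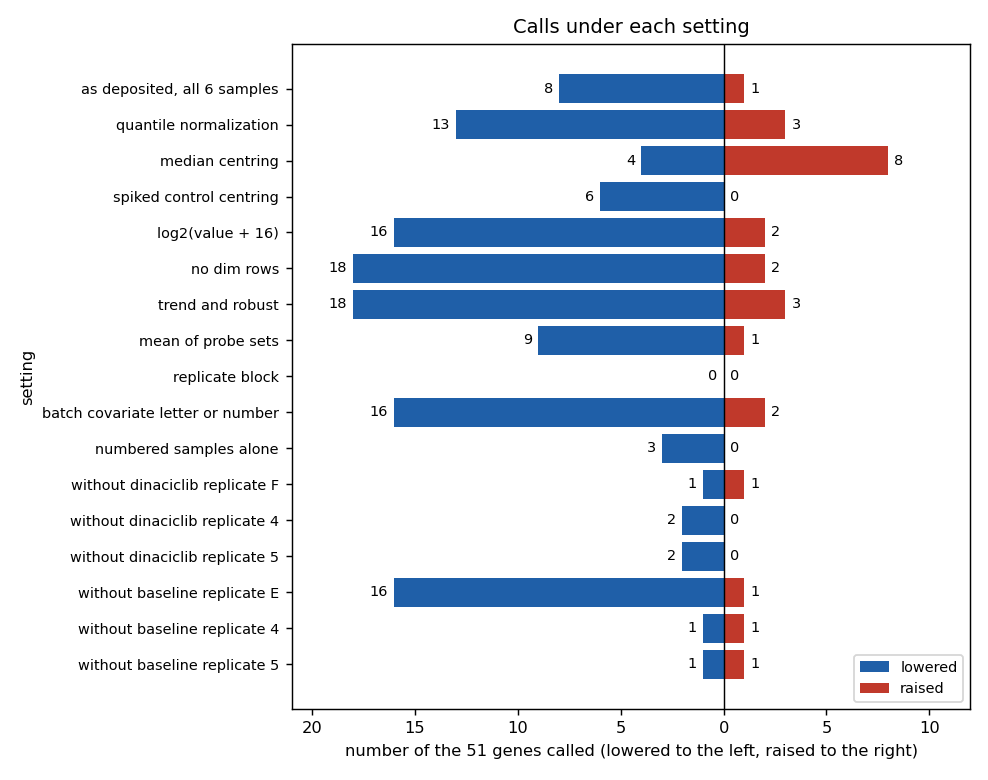
Number of the 51 genes called as lowered (blue, to the left) or raised (red, to the right) at an adjusted p under 0.05, as deposited and under each of 16 alternative settings. Lowered genes outnumber raised ones in most settings, while centring on the array median gives 8 raised and 4 lowered, and the replicate block gives none.

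The mitochondrial ribosomal protein transcripts were lower in baseline E than in the other baseline samples for 49 of 51 genes. Baseline E was lower over the whole array as well. Its median log2 difference from the mean of baseline 4 and 5 was -0.49 for the 51 genes and -0.27 for all genes. The median intensity of the 51 genes was 711, 835 and 699 in dinaciclib F, 4 and 5, against 763, 1209 and 1126 in baseline E, 4 and 5. Baseline E thus lay between dinaciclib F and dinaciclib 4 by this measure. Within the 4 numbered samples the median log2 change of the 51 genes was -0.36, with 40 below 0, beside -0.32 for all genes. Between the samples named with a letter, F minus E, it was -0.15, with 28 below 0, beside -0.15 for all genes. The pair of samples named with a letter holds 1 sample a group and gives no test, and the labels do not say what the letters and numbers stand for. The changes of the 8 genes called as lowered were -0.55 to -1.39 for F minus E and -0.98 to -1.89 in the numbered samples. Their negative sign in both follows from the choice of these genes, in which the groups do not overlap.

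**Figure D3:**
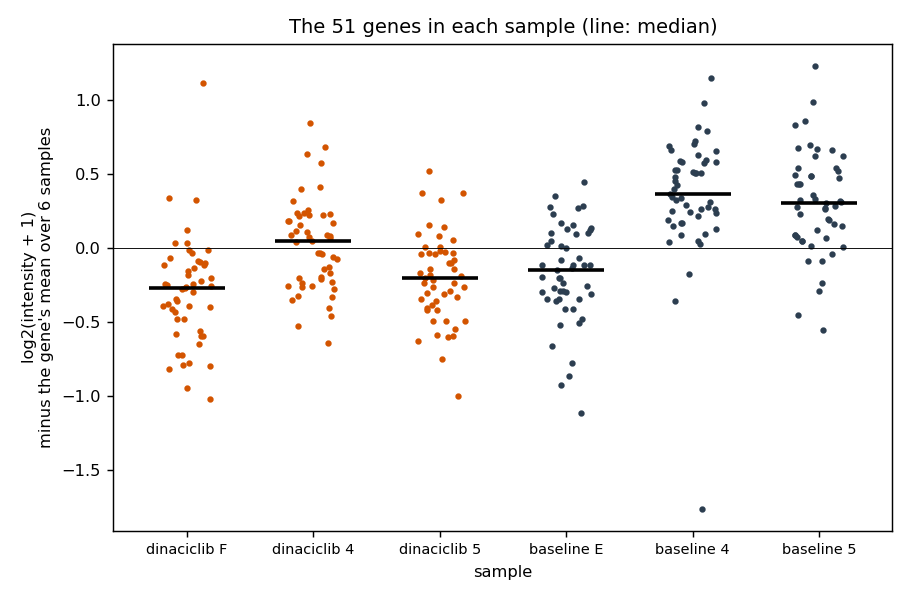
Each point is 1 of the 51 genes in 1 sample, as log2(intensity + 1) minus that gene's mean over the 6 samples, with dinaciclib in orange, baseline in dark blue and the median as a line. Baseline E sits among the dinaciclib samples, and for 49 of 51 genes it was the lowest of the baseline samples. Over all genes its median log2 difference from the mean of baseline 4 and 5 was -0.27.

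MRPL17, a large-subunit protein related to bacterial L17, had the greatest fall. Its intensities were 474, 582 and 456 in dinaciclib F, 4 and 5, against 1244, 2023 and 1810 in baseline E, 4 and 5. Every dinaciclib sample read less than any baseline sample. The means were 8.97 ± 0.19 and 10.70 ± 0.37 log2 units (SD, n = 3 each), a log2 change of -1.72 (SE 0.25; limma, BH-adjusted p = 0.0077). It passed under 15 of 16 alternative settings, with changes of -1.27 to -1.93.

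MRPL12 belongs to the stalk of the large subunit, where translation factors dock, and its protein is also known to bind the mitochondrial RNA polymerase. Its intensities were 303, 402 and 365 in dinaciclib F, 4 and 5, against 643, 942 and 853 in baseline E, 4 and 5, with no overlap. The log2 change was -1.18 (SE 0.23; limma, BH-adjusted p = 0.0179). It passed under 11 of 16 alternatives. MRPL49, a protein of the mitochondrial lineage, read 359, 583 and 518 in dinaciclib F, 4 and 5, against 741, 1437 and 1300 in baseline E, 4 and 5. Its groups do not overlap, but baseline E stands much nearer to the dinaciclib samples than baseline 4 and 5 do. With a log2 change of -1.22 (SE 0.33) it lay just inside the threshold (limma, BH-adjusted p = 0.0499).

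MRPL20, another large-subunit protein with a bacterial relative, read 798, 956 and 858 in dinaciclib F, 4 and 5, against 1466, 1908 and 1677 in baseline E, 4 and 5. The log2 change was -0.95 (SE 0.20; limma, BH-adjusted p = 0.0214). MRPL58, also known as ICT1, is a release-factor relative built into the large subunit that can free stalled peptides. It read 646, 707 and 549 in dinaciclib F, 4 and 5, against 947, 1281 and 1235 in baseline E, 4 and 5, a log2 change of -0.86 (SE 0.21; limma, BH-adjusted p = 0.0379). In neither gene did the groups overlap.

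Among small-subunit genes MRPS7 and MRPS18B fell. MRPS7, which binds the small ribosomal RNA in the head of the subunit, read 365, 460 and 536 in dinaciclib F, 4 and 5, against 742, 951 and 1009 in baseline E, 4 and 5. The log2 change was -0.99 (SE 0.23; limma, BH-adjusted p = 0.0321). Again every dinaciclib sample lay below every baseline sample. MRPS7, MRPS18B, MRPL49 and MRPS18A each passed under 8 of 16 alternatives, MRPL20 under 9 and MRPL58 under 7.

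The 3 MRPS18 genes are paralogs of 1 bacterial protein, S18. MRPS18A, whose protein is in the large subunit, read 143, 173 and 190 in dinaciclib F, 4 and 5, against 302, 374 and 453 in baseline E, 4 and 5, a log2 change of -1.14 (SE 0.23; limma, BH-adjusted p = 0.0205). MRPS18B, an additional small-subunit protein, read 731, 802 and 608 in dinaciclib F, 4 and 5, against 1149, 1766 and 1568 in baseline E, 4 and 5, a log2 change of -1.05 (SE 0.24; limma, BH-adjusted p = 0.0287). MRPS18C, the copy at the bacterial position, was dim, with 17.6, 14.5 and 17.4 in dinaciclib F, 4 and 5, against 23.0, 24.3 and 12.8 in baseline E, 4 and 5. Its groups overlapped, and its log2 change of -0.22 (SE 0.28) did not pass (limma, BH-adjusted p = 0.669). The difference between the paralogs was not tested.

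MRPS30 was the one gene of the 51 that rose. Its protein belongs to the mitochondrial lineage and lies in the large subunit. The intensities were 1599, 2295 and 1832 in dinaciclib F, 4 and 5, against 742, 993 and 867 in baseline E, 4 and 5, so the lowest dinaciclib sample was above the highest baseline sample. The means were 10.88 ± 0.26 and 9.75 ± 0.21 log2 units (SD, n = 3 each), a log2 change of 1.13 (SE 0.23; limma, BH-adjusted p = 0.0191). The change was 1.11 for F minus E and 1.14 in the numbered samples, both positive because the groups do not overlap. It was 0.99 to 1.58 under the 16 alternatives and passed in 10, but not without dinaciclib 4 (limma, BH-adjusted p = 0.0628), dinaciclib 5 (0.0576) or baseline 5 (0.0696), nor centred on the spiked controls (0.0561), in the numbered samples alone (0.0568) or with the replicate block (0.0946).

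The other high changes did not pass. MRPL44, an RNase III-like protein of the large subunit, read 133, 169 and 136 in dinaciclib F, 4 and 5, against 54.8, 92.9 and 85.5 in baseline E, 4 and 5, with no overlap and a log2 change of 0.93 (SE 0.26; limma, BH-adjusted p = 0.0565). It passed under 6 of the alternatives, among them quantile normalization (1.39) and the covariate for letter or number (limma, BH-adjusted p = 0.03). MRPL33, a small protein of the large subunit, read 3847, 4707 and 4430 in dinaciclib F, 4 and 5, against 2230, 3650 and 3000 in baseline E, 4 and 5. Its groups did not overlap either, and its log2 change of 0.57 (SE 0.24) missed the threshold (limma, BH-adjusted p = 0.165). MRPL35 had a log2 change of 0.61 (SE 0.32) and overlapping groups. MRPL41 was near the floor, with 24.6, 16.6 and 10.5 in dinaciclib F, 4 and 5, against 4.47, 2.50 and 26.8 in baseline E, 4 and 5, so its log2 change of 1.10 had a standard error of 0.78 and shrank to 0.37 on the scale of log2(intensity + 16). Without baseline 5 it was 1.99 and passed (limma, BH-adjusted p = 0.0473). The probe sets of MRPL44, MRPL35 and MRPL41, like that of MRPS22, carry the suffix _x_at, with which the manufacturer marks probe sets that can share probes with other transcripts. Such probe sets stood for 4 of the 51 genes (7.84%) and for 6.91% of all genes.

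**Figure D4:**
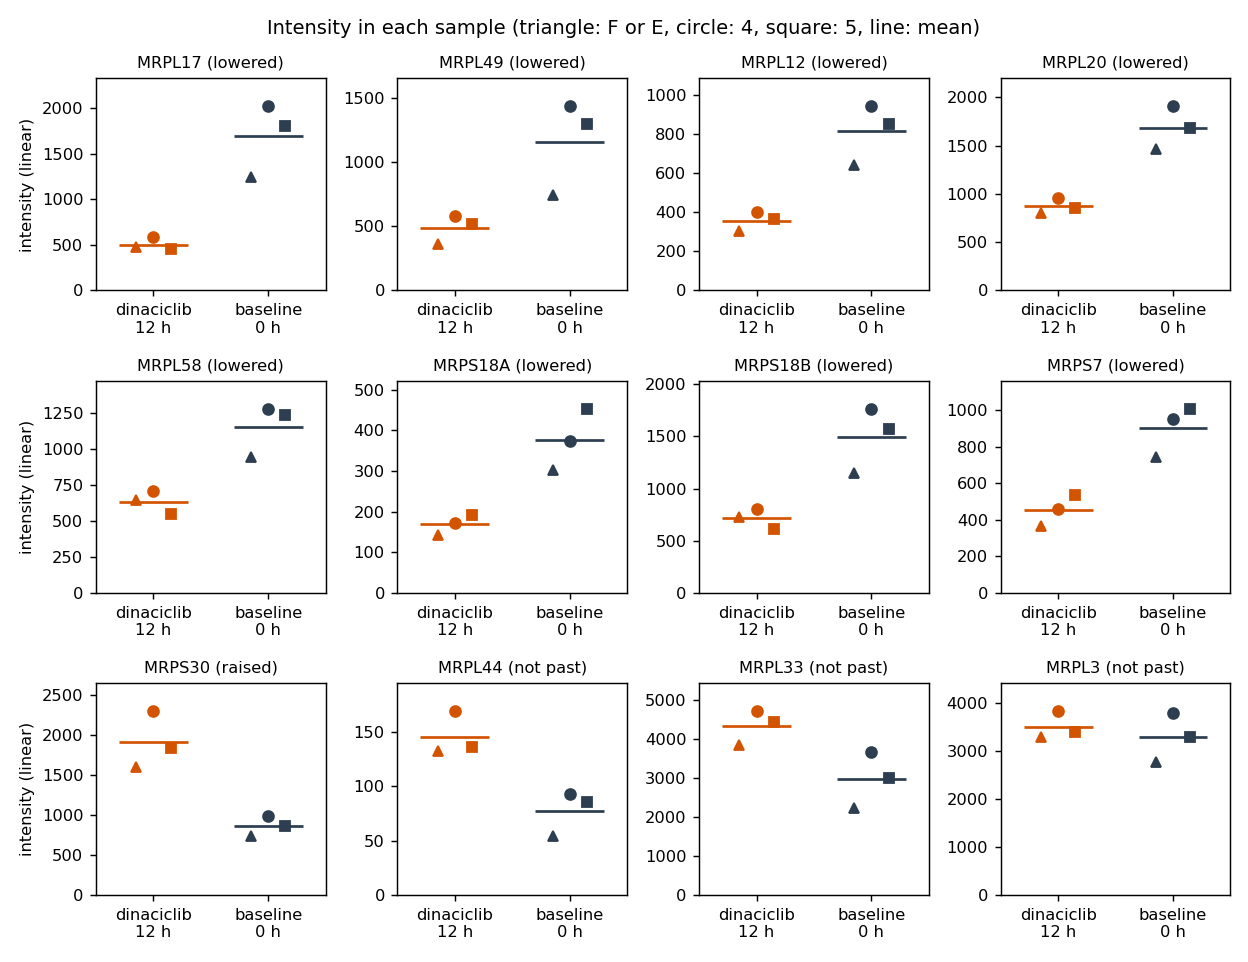
Linear intensity in each of the 3 dinaciclib samples (left) and 3 baseline samples (right) for the 9 called genes and for MRPL44, MRPL33 and MRPL3, with the group mean as a line; each panel's axis starts at 0. The 8 lowered genes have all dinaciclib samples below all baseline samples, MRPS30 has them all above, and MRPL3 overlaps.

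By subunit, 6 of 33 large-subunit genes fell and 1 rose, and 2 of 18 small-subunit genes fell with 0 rises. Over all genes 16.4% fell and 3.54% rose. The medians of the large and small subunit were -0.22 and -0.24. The large-subunit changes were spread more widely, with quartiles of -0.82 and 0.07 against -0.48 and -0.17. Origin was assigned from the number in the symbol alone, which places the lowered MRPS18A and MRPS18B among genes with bacterial counterparts. By this rule 6 of 32 genes with bacterial counterparts fell and 0 rose, with a median of -0.43. Of 19 genes of the mitochondrial lineage 2 fell and 1 rose, with a median of -0.17. No difference between these groups was tested.

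MRPL3, which reaches toward the peptidyl transferase centre, read 3297, 3837 and 3393 in dinaciclib F, 4 and 5, against 2767, 3802 and 3291 in baseline E, 4 and 5. The groups overlapped through baseline 4, while baseline E and 5 lay below every dinaciclib sample, and the log2 change of 0.10 (SE 0.20) did not pass (limma, BH-adjusted p = 0.784), though it did when arrays were centred on their median (0.56). MRPS12, at the decoding centre, had a log2 change of -0.74 (SE 0.26) on its brightest probe set and did not pass (limma, BH-adjusted p = 0.11). MRPS16 and MRPS22, in which mutations cause mitochondrial disease, had log2 changes of -0.47 and -0.18, MRPL19 one of -0.15, MRPS10 one of -0.07 and MRPL52, among the 3 dimmest, one of -0.18. None of these 5 passed.

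The 51 genes included many of high signal, with a median brightness percentile of 84.4 among all genes. Intensities of different probe sets are not on a common scale, so this ranks probe sets and not transcripts. Since the change varied with brightness over the whole array, the 39 of the 51 above the 75th percentile were also set beside all 2991 genes there. Of the 39, 7 fell and 1 rose, where 11.7% of the bright genes fell and 6.08% rose. Their median log2 change was -0.22 and that of the bright genes -0.01, and 11 of the 39 lay above 0, where 49.0% of the bright genes did. After quantile normalization the medians were -0.14 and -0.0028, and centred on the array median 0.23 and 0.44. Centring shifts all genes alike, so it leaves the gap between the medians as deposited. Of the 12 dimmer genes 1 fell and 0 rose, where 18.0% of all genes of that range fell and 2.69% rose, and their median was -0.31, beside -0.36.

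**Figure D5:**
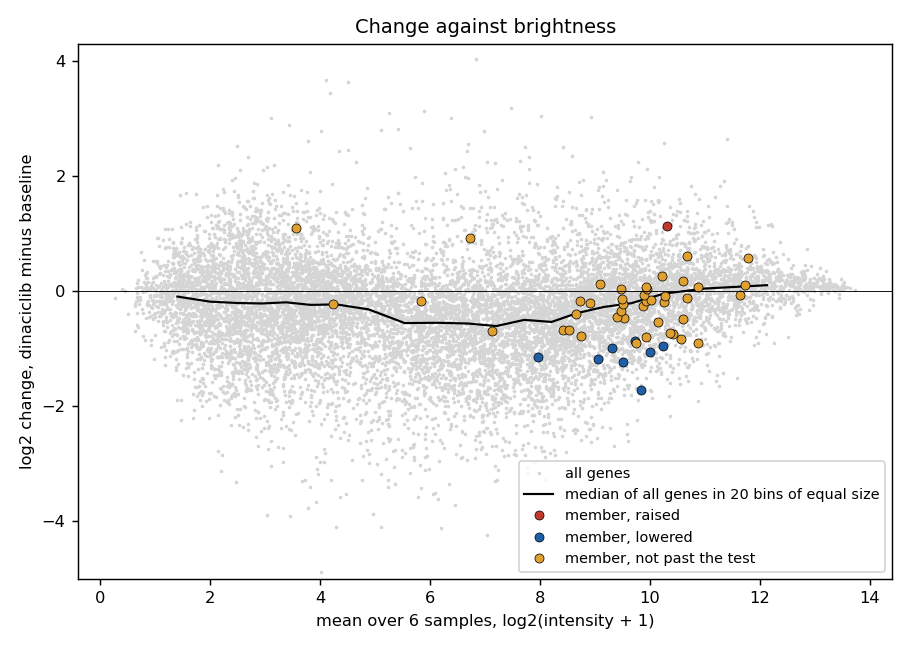
Log2 change against the mean over the 6 samples, both on the log2(intensity + 1) scale, for all 11963 genes (grey), with the running median of 20 equal bins (line) and the 51 genes in colour. Most of the 51 lie at the bright end, where 28 of the 39 above the 75th percentile have a change below 0.

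In the 10 genes with several probe sets, all probe sets of a gene had the same sign, though MRPS11 had -0.77 and -0.02. Over all genes 34.9% had a change above 0. Of the 64 probe sets 11 fell, 1 rose and 52 did not pass in a fit over 22215 probe sets, of which 13.4% fell and 3.86% rose. The only probe set of MRPL49, a gene called as lowered above, did not pass in that fit (limma, BH-adjusted p = 0.0538). Both probe sets of MRPS18A fell (log2 change -1.14 and -1.63), as did both of MRPS18B (-1.05 and -1.13). The second probe set of MRPS30 read 288, 466 and 431 in dinaciclib F, 4 and 5, against 143, 240 and 240 in baseline E, 4 and 5. Those groups did not overlap, and the log2 change of 0.93 (SE 0.31) did not pass (limma, BH-adjusted p = 0.0936). MRPL9 and MRPS12 passed on a dimmer probe set but not on the brightest. For MRPL9 these were -0.98 and -0.82. For MRPS12 they were -1.08 and -0.74, and its remaining 2 probe sets had -0.55 and -1.38 without passing. The second probe set of MRPL20 lay at 1.63 to 10.4 with dinaciclib and 14.0 to 24.7 at baseline and did not pass (log2 change -1.76, SE 0.55).

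Promoter sequences from RefSeq (GRCh38.p14, 250 bases before to 50 after the gene's start) were found for 45 of the 51 genes, all but MRPL2, MRPL13, MRPL15, MRPL23, MRPL35 and MRPS28. They were searched on both strands for core motifs of 3 factors known at promoters of genes for mitochondria, namely CGCATGCG for NRF1, CCGGAAG for ETS factors such as GABPA, and AAGATGGC for YY1. The motifs were chosen with the results known. The ETS motif was in 18 of the 45 (40%), against 15.2% of 9563 promoters of genes on the array, the YY1 motif in 12 (26.7%), against 4.76%, and the NRF1 motif in 3 (6.67%), against 3.17%. With 1 free base in the NRF1 core (CGCANGCG) the counts were 7 (15.6%), against 15.9%, so the comparison for NRF1 depends on the letters searched. The called genes did not share 1 motif, since among the 8 lowered genes 3 promoters held the ETS motif, 4 the YY1 motif and 1, MRPL17, the NRF1 motif, and the raised MRPS30 held only the YY1 motif of the 3. The promoters of MRPL17, MRPS18A and MRPS30 are shown because they belong to the gene with the greatest fall, a gene lowered on both probe sets and the raised gene. Capitals mark motif matches, which do not overlap each other in these 3 and are descriptions, not sites of binding.
MRPL17, chr11:6683291-6683590, minus strand: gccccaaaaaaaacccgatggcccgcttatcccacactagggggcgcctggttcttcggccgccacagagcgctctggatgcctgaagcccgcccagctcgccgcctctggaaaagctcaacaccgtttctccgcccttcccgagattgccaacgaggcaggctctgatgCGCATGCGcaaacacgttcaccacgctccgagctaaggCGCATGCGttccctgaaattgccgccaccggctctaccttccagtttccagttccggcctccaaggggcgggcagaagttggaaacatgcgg
MRPS18A, chr6:43687742-43688041, minus strand: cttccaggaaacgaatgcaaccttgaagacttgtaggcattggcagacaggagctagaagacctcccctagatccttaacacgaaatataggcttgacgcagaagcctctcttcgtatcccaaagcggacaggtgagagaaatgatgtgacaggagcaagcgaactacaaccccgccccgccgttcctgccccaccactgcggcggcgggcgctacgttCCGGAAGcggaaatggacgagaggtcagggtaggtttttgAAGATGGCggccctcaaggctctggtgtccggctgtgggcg
MRPS30, chr5:44808697-44808996, plus strand: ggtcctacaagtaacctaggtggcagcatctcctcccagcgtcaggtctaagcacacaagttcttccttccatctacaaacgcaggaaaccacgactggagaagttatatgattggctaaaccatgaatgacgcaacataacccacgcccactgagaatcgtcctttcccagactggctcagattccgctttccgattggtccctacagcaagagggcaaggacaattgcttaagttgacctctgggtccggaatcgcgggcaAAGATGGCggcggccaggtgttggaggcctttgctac
In MRPS18A and MRPS30, which moved in opposite directions, the YY1 letters AAGATGGC lie after the gene's start, at bases 10 to 17 in MRPS18A and 14 to 21 in MRPS30.

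For 13 of these 45 genes (28.9%) another gene starts within 1000 bases on the opposite strand, head to head, against 19.7% of genes on the array. Of the 8 partners that were measured 3 fell and 0 rose, where 16.4% of all genes fell and 3.54% rose. PPP1R10, a regulator of protein phosphatase 1 that starts beside MRPS18B, read 39.1, 9.70 and 18.4 in dinaciclib F, 4 and 5, against 198, 307 and 251 in baseline E, 4 and 5. Its log2 change was -3.62 (SE 0.49; limma, BH-adjusted p = 0.00639), that of MRPS18B -1.05. SARS2, the mitochondrial seryl-tRNA synthetase beside MRPS12, had -1.29, and PTCD2, beside MRPS27 (-0.16), had -1.62. FAU, which encodes a cytosolic ribosomal protein and starts beside MRPL49, had 0.17 and did not pass, while MRPL49 fell. MRPL46 and MRPS11, both mitochondrial ribosomal protein genes, form a pair of their own, and each is counted among the 8 partners. Their log2 changes were -0.67 and -0.77, neither past the test. The partners were looked up after the values were seen, and no difference within a pair was tested.

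Genes that build and serve the mitochondrial ribosome are given beside all genes, of which 16.4% fell and 3.54% rose, with a median log2 change of -0.26. Of 16 measured genes for its assembly and ribosomal RNA modification 7 fell and 0 rose, with a median log2 change of -0.77. The largest falls were those of MRM1 (-1.69, SE 0.27) and MRM2 (-1.47, SE 0.23), methyltransferases of the large ribosomal RNA. Of 13 translation factors and helpers 5 fell and 0 rose, with a median of -0.40. QRSL1, a subunit of the amidotransferase that makes glutaminyl-tRNA, had -1.76 (SE 0.20) and MTRF1, a release factor, had -1.66 (SE 0.22). TUFM (-0.10) and LRPPRC (0.02), an elongation factor and an RNA-stabilizing protein, did not pass. Of 12 genes that encode mitochondrial aminoacyl-tRNA synthetases 4 fell and 0 rose, with a median of -0.55, among them SARS2 and LARS2 (-1.23, SE 0.19). Of 24 import genes 4 fell and 0 rose, with a median of -0.21 and TIMM9, a chaperone of the intermembrane space, at -1.90 (SE 0.22) and TIMM10, its partner, at -1.26 (SE 0.28). Among the listed genes RARS2, a synthetase (0.43 to 6.66 over the samples), and GFM1, a translation factor (1.88 to 16.4), were near the floor. No list was tested as a set.

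Of 4 mitochondrial ribosomal or ribosome-bound proteins with other symbols, OXA1L, the insertase that takes up new chains at the inner membrane, fell (-1.14, SE 0.21), though not without baseline 4, baseline 5 or dinaciclib 5 (limma, BH-adjusted p = 0.0565, 0.0627 and 0.0514). DAP3, a small-subunit GTPase, read 1696, 1769 and 1664 in dinaciclib F, 4 and 5, against 1724, 2027 and 1883 in baseline E, 4 and 5, and did not pass (-0.13, SE 0.17). PTCD3 (-0.85) and GADD45GIP1 (-0.09) did not pass either. TIMM10 lost its call without any 1 sample other than baseline E (limma, BH-adjusted p = 0.0576 to 0.0963).

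Of 12 genes of mitochondrial DNA transcription and maintenance 3 fell and 1 rose, where 16.4% of all genes fell and 3.54% rose. TFB2M, the mitochondrial transcription factor that opens the promoter, read 2601, 3824 and 3627 in dinaciclib F, 4 and 5, against 808, 1373 and 1169 in baseline E, 4 and 5, without overlap and with a log2 change of 1.60 (SE 0.28; limma, BH-adjusted p = 0.0129). DNA2 (-2.90), a helicase and nuclease, and POLG2 (-1.49), a subunit of the mitochondrial DNA polymerase, fell. TFAM (0.87, SE 0.41) and POLRMT (-0.19, SE 0.31) did not pass. Of 11 nuclear regulators 3 fell and 1 rose, against the same shares of all genes. GABPA, which binds the ETS motif, read 136, 138 and 168 in dinaciclib F, 4 and 5, against 48.5, 64.1 and 66.6 in baseline E, 4 and 5, a log2 change of 1.29 (SE 0.21; limma, BH-adjusted p = 0.0111). CREB1 (-1.67) and ESRRA (-1.18) fell, ESRRA not without baseline 4 or 5 or dinaciclib 4 or 5 (limma, BH-adjusted p = 0.0596 to 0.0827). NRF1 (-0.13) and YY1 (0.61) did not pass, nor did MYC (1.12, limma, BH-adjusted p = 0.0518). MYC passed under 7 of the 16 alternatives, which were quantile normalization, median centring, log2(intensity + 16), no dim rows, the variance trend with robust estimation, the letter or number covariate, and without dinaciclib F (limma, BH-adjusted p = 0.00191 to 0.0486).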

How the data were processed

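Transcripts of 6 samples were measured on 1-colour oligonucleotide arrays with a biotin label, and total RNA was extracted with Trizol, per the labels' protocols. The authors' deposited table holds linear intensities, 1 per sample and probe set, as its values show; their background correction and scaling are not given in the sources used here. Of 22277 probe sets, 62 controls were left out, and 19064 had 1 gene in the platform's annotation, 1043 several and 2108 none; 19052 of the first matched a RefSeq gene identifier (GRCh38.p14, used for names and neighbours) and 0 symbols changed. A probe set naming MRPS31P5 with a second gene was left out. The probe set of highest mean log2 value stood for its gene. Log2(value + 1) was tested as it stood in limma 3.58.1 (lmFit, eBayes; R 4.3.3), the group being the only term, and p-values of 11963 genes and 3151 other probe sets were adjusted by the Benjamini-Hochberg method. The steps were tested on simulated data. There a log2 change of 1 was recovered in 3.08% of 200 changed rows and in 51.2% of 3023. A gene that did not pass may therefore still have changed.

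Named genes were all called members, the 5 highest and 5 lowest changes, the 3 brightest and 3 dimmest members, members with a called probe set among several, and fixed genes, of which MRPL10 and MRPL37 were not analysed here; in other lists, the 2 largest called rises and falls and fixed genes. Others named were chosen after their values were seen. Members, lists and tests were chosen with earlier results of these data known. Alternatives were other scalings, log2(value + 16), robust estimation with a variance trend, no rows under the 40th percentile, means of probe sets, a replicate block, a letter or number covariate, the numbered samples alone and each sample left out. The replicate block and the numbered samples alone give the same log2 changes and differ only in the error estimate. The letter samples alone were added after seeing the data.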

Additional observations from a re-analysis of the deposited data

How the results depend on the processing

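No member of the family that was named changed its sign with a call under any alternative. As deposited 1 member rose, 8 fell and the median log2 change was -0.22. Raised and lowered members numbered 3 and 13 after quantile normalization (8.89% and 13.4% of all genes), 8 and 4 centred on the array median (16.3% and 10.9%; member median 0.23), 2 and 16 with log2(value + 16) (5.39% and 22.4%), 2 and 18 of 49 without dim rows (8.88% and 35.4%), 3 and 18 with a variance trend and robust estimation (5.64% and 22.4%), 2 and 16 with the letter or number covariate (5.01% and 19.1%), and 0 and 3 in the numbered samples alone (1.92% and 9.86%). The lowered share of the members was 31.4% with log2(value + 16) and with the covariate, 36.7% without dim rows, 35.3% with the trend and 5.88% in the numbered samples. Centring on the spiked controls gave 0 rises and 6 falls (2.02% and 13.3% of all genes). An unadjusted p under 0.05 was then reached by 19 of 51 members and by 3675 of 11963 genes. Leaving out 1 sample gave 0 to 1 rises (1.55% to 2.64% of all genes), 1 to 16 falls (7.51% to 15.4%) and medians of -0.47 to -0.14; the highest count and the lowest median came without baseline E. The causes of these shifts were not tested.

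With the replicate block (replicate 4 and 5 paired, E and F each a level of its own) limma called 0 members as raised and 0 as lowered, with a median of -0.36, and 0 of all genes, although 21 members and 4093 genes had an unadjusted p under 0.05. The block leaves 1 residual degree of freedom. Because E and F each have their own level, they drop out of its log2 changes, which equal those of the numbered samples alone. Deviations from the group means correlated at 0.07 in both pairs of equal number and at 0.15 between dinaciclib F and baseline E. The other pairs across the groups were all lower, at -0.098 to 0.0298. Deviations cancel within a group, so these correlations are tied to each other. Whether the samples are paired was not tested, and the labels do not say. For named members not past the test, 26 of 206 single values under the alternatives passed, in the direction seen as deposited; for the 8 lowered members 54 of 128 no longer passed, and for MRPS30 6 of 16. Signal over background limits MRPL41, MRPS18C and MRPL52, the dimmest members.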
